A study of Rattus norvegicus with 6 samples.

Results

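Adipocyte nuclei were a rare class of the rat ileum, 99 of the 40970 nuclei that passed quality control (0.242%). A nucleus was counted as an adipocyte nucleus when it held UMIs (unique molecular identifiers, 1 for each captured transcript) of at least 3 of 5 genes, namely Plin1, Adipoq, Cidec, Lipe and Fabp4. The level of these 5 genes in the class is therefore a consequence of the selection and is given only as a description. Nuclei came from the ileum of 6 male wild-type Sprague-Dawley rats aged 6 weeks, with 1 library per rat. In the SAP group (severe acute pancreatitis, 3 rats), 3% sodium taurocholate was infused backwards into the pancreatic duct at 0.1 mL per 100 g of body weight and the duct was clamped for a short time. In the control group (CON, 3 rats) the abdomen was opened as a sham operation and nothing was infused. After the operation the rats had water but no food, and all were killed at 24 h. Fat attached to the ileum was trimmed away at collection. How much fat was left on each piece is not given in the sources used here. Passing nuclei held between 5549260 UMIs in SAP 1 and 28771508 UMIs in CON 1.

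White adipocytes store triglyceride in a single large lipid droplet whose surface proteins control access by lipases. In the fed state they take up fatty acids and glucose under insulin, and in fasting or stress they release fatty acids after adrenergic signals. They also secrete hormones such as adiponectin and leptin. In the gut they lie mainly in the mesentery and along the vessels that enter the bowel wall, beside the mesothelium that covers it.

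The 5 rule genes cover several of these roles. Plin1 (perilipin 1) coats the lipid droplet and Cidec joins droplets into larger ones. Lipe (hormone-sensitive lipase) cleaves stored diglyceride, Fabp4 carries fatty acids in the cytosol, and Adipoq encodes adiponectin. Promoter sequences of RefSeq, on the build GRCr8 and from 250 bases before to 50 bases after the start of each gene, were looked up for these genes and for Car3, Retn, Adrb3, Cdo1 and Cfd, the 5 genes that led the profile below. Of the 10 genes, 5 were in the table (Plin1, Adipoq, Cidec, Retn and Cfd). The letters TTGCNNAA, a form of the motif of C/EBP factors that act in fat cell formation, were searched on both strands and found in the promoters of Plin1 and Cidec, and in 10.6% of all 33469 promoters. The stretches that hold the match are shown because both genes chose the nuclei, with the match in capitals and 20 bases on either side, on the minus strand of chr1:143086198-143086245 for Plin1 and of chr4:148137297-148137344 for Cidec.
Plin1: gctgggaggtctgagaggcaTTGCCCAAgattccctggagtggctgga
Cidec: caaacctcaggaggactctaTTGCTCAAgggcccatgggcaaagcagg
The match began 77 bases before the start of Plin1 and 209 bases before that of Cidec. A match is a description of these letters and not of binding.

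The class was unevenly spread over the rats. CON 1 held 42 adipocyte nuclei among 9246 (0.454%, exact 95% interval 0.328 to 0.614), CON 2 held 20 among 6260 (0.319%, 0.195 to 0.493) and CON 3 held 19 among 8414 (0.226%, 0.136 to 0.352). SAP 1 held 0 of 3189, which allows a share of up to 0.0941% by a limit of 3 counts, and up to 0.116% by the exact 95% interval used for the other libraries. SAP 2 held 1 among 5968 (0.0168%, 0.000424 to 0.0933) and SAP 3 held 17 among 7893 (0.215%, 0.126 to 0.345). These intervals cover counting error only. SAP 3 lay just under CON 3, so the groups did not overlap, and SAP 1 and SAP 2 lay well under both.

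The mean share was 0.333% ± 0.115 in CON and 0.0774% ± 0.120 in SAP (SD, n = 3 each), a difference of −0.256 percentage points. The exact permutation test gave p = 0.1 (two-sided), the smallest value that 3 against 3 rats can give. Over the 12 marker classes compared (limma on logit shares), the odds ratio of SAP to CON was 0.135 (95% interval 0.0205 to 0.897), with an adjusted p of 0.154. No class passed (0 of 12, 0%), and 3 had an unadjusted p under 0.05, namely adipocyte, neutrophil and mesothelial. With the replicate number as a block, a pairing that the labels do not state, the adjusted p for adipocytes was 0.0263 (limma). The exact permutation test of the 3 pairs gave p = 0.25, the smallest it can give. Without SAP 3 the adjusted p was 0.0249. Counted against nuclei of the stromal classes only, the class was 10.7% on average in CON and 2.05% in SAP (limma, adjusted p = 0.0259 over 6 classes in place of 12). The exact permutation test of these shares gave p = 0.1. They were 14.2%, 13.8% and 4.04% in CON 1, 2 and 3 and 0%, 2.17% and 3.99% in SAP 1, 2 and 3. Stromal nuclei numbered 295, 145 and 470 in CON and 47, 46 and 426 in SAP. The shares of SAP 1 and SAP 2 thus rest on few nuclei. The call therefore changed with the block, without SAP 3, and where the stromal denominator and a smaller number of classes were used at the same time. Some alternatives made the groups overlap. Among these, the difference was −0.0709 percentage points with nuclei that held markers of another class left out. It was −0.410 percentage points with at least 2000 UMIs.

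**Figure D1:**
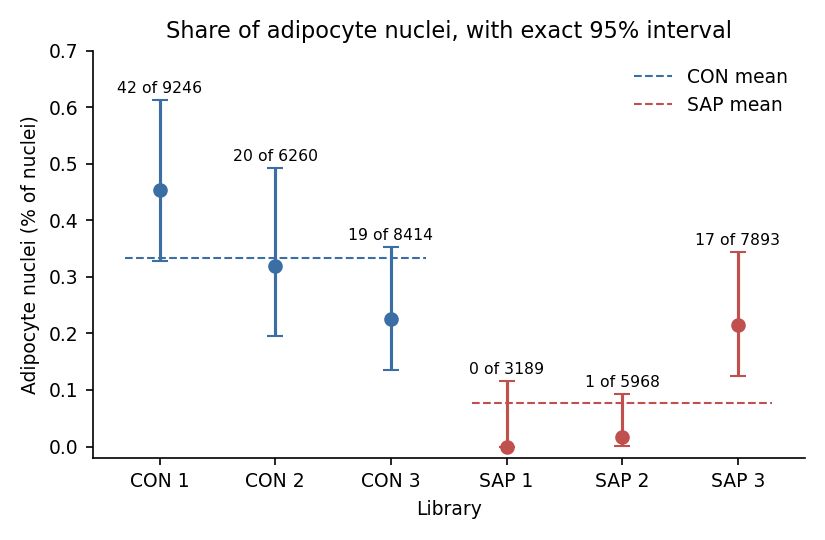
Share of adipocyte nuclei among all passing nuclei (y axis, %) in each library (x axis), as points with exact 95% intervals and the number of nuclei above, and group means as dashed lines. SAP 1 and SAP 2, with 0 and 1 nuclei, lie below all CON libraries, and SAP 3 at 0.215% lies beside CON 3 at 0.226%.

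Other classes of the wall followed the adipocyte share in part, and none of them passed the test. Mesothelial nuclei, which form the serosal lining, numbered 44, 2 and 19 in CON 1, 2 and 3 and 0, 0 and 6 in SAP 1, 2 and 3. Fibroblast nuclei numbered 72, 14 and 63 in CON and 5, 4 and 120 in SAP, and smooth muscle nuclei 167, 107 and 360 in CON and 35, 25 and 233 in SAP. As shares of all nuclei, smooth muscle and fibroblasts were lowest in SAP 1 and SAP 2, but fibroblasts were highest in SAP 3 (1.52%), and their group means were 0.584% in CON and 0.581% in SAP. Endothelial nuclei averaged 0.288% in CON and 0.461% in SAP, and pericyte nuclei 0.212% and 0.552%. CON 2, with 0.319% adipocyte nuclei, had 0.0319% mesothelial nuclei. In SAP 2 the epithelial class reached 96.6% of nuclei. Mitochondrial UMIs, a sign of nuclear quality, had a median of 1.84% in SAP 1 and 1.29% in SAP 2, against 0.700%, 0.125% and 0.218% in CON 1, 2 and 3 and 0.387% in SAP 3, and the share of barcodes that passed quality control was 12.2% in SAP 1 and 26.2% in CON 2 and between 76.4% and 79.9% in the other libraries. The part of tissue sampling and of nuclear quality in the difference was not tested. Summed over all nuclei of a library, Plin1, Adipoq and Fabp4 together were at 28.2, 21.0 and 14.2 CPM (UMIs of a gene per 1e+06 UMIs) in CON 1, 2 and 3 and at 4.69, 3.74 and 18.8 CPM in SAP 1, 2 and 3. In such sums fewer fat cells and less RNA per fat cell cannot be told apart. Lipe and Cidec together ran the other way, at 19.1, 31.8 and 52.3 CPM in CON and 56.4, 130 and 66.2 CPM in SAP.

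Lipe and Cidec were also less particular to the class. In nuclei with markers of the epithelial class alone, Lipe was at 38.2 CPM and Cidec at 20.4 CPM, whereas Plin1, Adipoq and Fabp4 were at 1.50, 1.85 and 2.42 CPM. Lipe was at 83.0 CPM in the endothelial class (37 UMIs). It was near the epithelial level, on few UMIs, in the pericyte (45.6 CPM, 9 UMIs), mesothelial (44.8 CPM, 5 UMIs) and fibroblast (42.6 CPM, 17 UMIs) classes. Cidec was at 21.8 CPM in the B class (25 UMIs). Fabp4 was at 110 CPM in the endothelial class. Of the 346 nuclei just outside the rule, with 2 of the 5 genes, 215 held Cidec and Lipe, and 126 of these were in SAP 2. When 2 genes were enough, the share was higher in SAP than in CON by 0.623 percentage points (limma, adjusted p = 0.779), and the cause was not tested.

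The label was checked on genes that the rule did not use. Nuclei with 3, 4 and 5 rule genes numbered 35, 34 and 30. Car3 (carbonic anhydrase 3, abundant in rodent fat) was at 13.3 CPM in nuclei with 2 rule genes and at 148, 701 and 1757 CPM in those with 3, 4 and 5. Retn, which encodes resistin, was at 2.46, 52.9, 143 and 523 CPM in the same order. Pparg, the master transcription factor of fat cells, was at 17.6 CPM with 2 genes, 42.4 CPM with 3, 335 CPM with 4 and 390 CPM with 5. Acsl1, which activates fatty acids, was at 104, 162, 1665 and 1798 CPM. Nuclei just inside the rule thus had lower levels of all 4 genes than those with 4 or 5 rule genes, and for Acsl1 they were at 162 CPM against 104 CPM just outside it. Of the 35 nuclei with 3 rule genes, 10 held over 10000 UMIs each and together 204058 of the 283347 UMIs but 3 of the 42 of Car3. Without nuclei over 10000 UMIs, Car3 was at 492, 1242 and 2541 CPM in nuclei with 3, 4 and 5 rule genes.

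**Figure D2:**
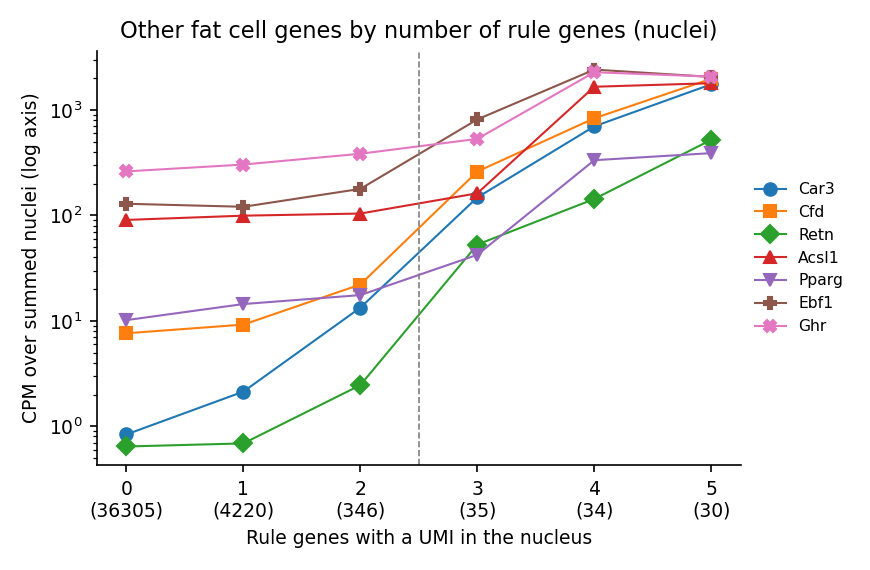
Level (y axis, CPM over summed nuclei, log axis) of 7 genes that the rule did not use, by the number of rule genes with a UMI (x axis, number of nuclei in brackets). The dashed line marks the rule, and Car3 goes from 13.3 CPM on its left to 1757 CPM in nuclei with all 5 genes.

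Each rule gene was also read in nuclei chosen on the other 4. Plin1 had a UMI in 62 of 78 such nuclei, Adipoq in 46 of 84, Cidec in 58 of 75, Lipe in 61 of 76 and Fabp4 in 59 of 77. Free RNA can give stray UMIs in any nucleus, and nuclei with T cell markers serve as the background here, with a median of 2523 UMIs against 2344 in adipocyte nuclei. In the T class 1.53% of nuclei had a UMI of Plin1, 0.509% of Adipoq, 4.20% of Cidec, 8.02% of Lipe and 1.15% of Fabp4. These T nuclei belonged to no other class besides epithelium, so none was an adipocyte nucleus, and epithelial markers were allowed in them. The adipocyte nuclei had already been picked on the remaining rule genes. The shares are therefore a description and no support for the label.

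The class also carried transcripts of other cells. The median adipocyte nucleus held 2344 UMIs against 1760 in all other nuclei, with a range from 1257 to 38201. Markers of the epithelial class (3 or more of 5) were present in 60 of the 99, or 60.6%, against 74.6% of the other nuclei. Markers of most other classes were found more often than in the other nuclei. Those of T cells were in 19 (19.2% against 2.34% of the other nuclei), of fibroblasts in 10 (10.1% against 0.656%), of endothelium in 9 (9.09% against 0.394%) and of macrophages in 9 (9.09% against 0.851%). Those of mesothelium and neutrophils were in 0. In total 66 held markers of another class and 30 those of a class other than epithelial. The most abundant transcripts were the Paneth cell defensin Defal1, at 8670 CPM against 16560 CPM in the other nuclei, and the antimicrobial lectin Reg3g, at 7430 CPM against 13016 CPM. These were below the level in the rest of the tissue, and 4595 of the 4789 UMIs of Defal1 lay in CON 1.

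Deep nuclei weighed heavily on the sums. Nuclei over 10000 UMIs were 15 of the 99 (15.2%, against 1.50% of the other nuclei), held 55.4% of the UMIs of the class, and 13 of them had markers of another class besides epithelium, against 17 of the other 84. Scrublet, which scores nuclei for being doublets, placed 1 adipocyte nucleus among the top 5% of its library. Whether the deep nuclei were doublets was not tested. With them left out, all 25 leading genes described next stood further above the rest of the tissue, at 37.7-fold to 994-fold. Listed genes described further below moved too, with Pparg at 35.5-fold in place of 18.1-fold and Ebf1 at 18.6-fold in place of 11.6-fold. Acsl1 was at 19.0-fold in place of 10.0-fold and Ghr at 9.59-fold in place of 4.91-fold.

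The profile was described by the ratio of CPM in adipocyte nuclei to CPM in all other nuclei, with no test, since the same nuclei were chosen by their content. Of 17734 genes with at least 100 UMIs in all, 3467 (19.6%) were at least 2-fold higher in adipocyte nuclei, and the median ratio was 1.12. Outside the rule, 96 genes of 10 adipocyte lists were measured, of which 58 were at least 2-fold higher and 8 at least 2-fold lower, with a median ratio of 2.83. Of the 84 of these with at least 100 UMIs, 53 were at least 2-fold higher. These ratios describe nuclei that were picked for fat cell transcripts, so the counts are read as a portrait of the class.

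The 25 leading genes had the highest ratios outside the rule, among genes with at least 50 UMIs in adipocyte nuclei, spread over at least 4 libraries. They ran from 20.6-fold to 500-fold, and all 25 were higher in adipocyte nuclei in each of the 4 libraries with at least 10 of these nuclei. Car3 led at 787, 1345 and 320 CPM in CON 1, 2 and 3 and 525 CPM in SAP 3, against 1.38 CPM in the other nuclei (500-fold). Retn followed at 224, 461 and 60.4 CPM in CON and 128 CPM in SAP 3 (279-fold). Adrb3, the beta-3 adrenergic receptor through which catecholamines start lipolysis in rodent fat, was at 77.0, 258 and 112 CPM in CON and 85.1 CPM in SAP 3 (139-fold). In each of these the SAP 3 value lay within the CON range.

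Cfd (adipsin, a complement factor made by fat) was at 974, 2101 and 225 CPM in CON 1, 2 and 3 and at 454 CPM in SAP 3 (101-fold). Cdo1, which oxidises cysteine, was 131-fold higher. Abcd2, a peroxisomal transporter of long fatty acids, was 77.8-fold higher, and Ces1d, a lipase of the carboxylesterase family, 52.8-fold. The growth factor gene Igf1 was 50.7-fold higher, the thyrotropin receptor Tshr 41.5-fold, the oestrogen receptor Esr1 29.4-fold and the secreted factor Nrg4 21.1-fold. Further down were Prkar2b, a regulatory subunit of protein kinase A, at 20.7-fold and Pck1, which makes the glycerol backbone of triglyceride in fat, at 20.6-fold. The remaining leading genes were Aox3, S100b, Slc1a3, Cbr3, Kcnip1, Col5a3, Nnat, Trhde, Mtarc1, Stac, LOC100910558 and Art3, at 20.7-fold to 77.6-fold. The next gene below this list was at 19.5-fold.

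All 25 genes were also higher than in the fibroblast, endothelial and macrophage classes, and 24 of 25 were above the level in the mesothelial class. The exception was Nrg4, at 94.1 CPM in adipocyte nuclei and 161 CPM in mesothelial nuclei. LOC100910558 and Esr1 were only 1.07-fold and 1.59-fold above the mesothelial level, on 10 and 9 mesothelial UMIs.

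**Figure D3:**
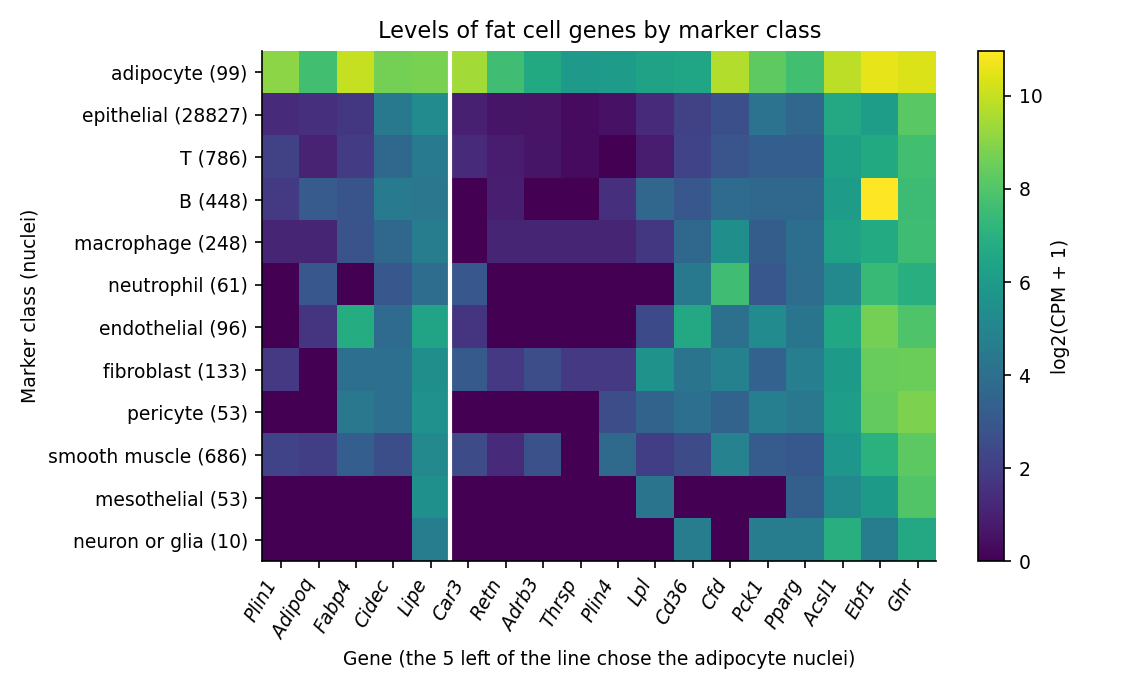
Levels of fat cell genes (x axis) in nuclei of each of 12 marker classes (y axis, number of nuclei in brackets), coloured by log2(CPM + 1). Outside the adipocyte row nuclei of several classes were left out, but nuclei of the non-epithelial classes could also hold epithelial markers. The adipocyte row is bright throughout, Lipe and Cidec also show in the epithelial row, and Ebf1 is highest in B nuclei.

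Among lipid droplet proteins outside the rule, 5 of 7 were at least 2-fold higher in adipocyte nuclei than in the others. Plin4, a droplet coat protein of white fat, was at 65.2 CPM against 1.14 CPM (57.1-fold), and G0s2, an inhibitor of triglyceride lipase, at 59.7 CPM against 2.13 CPM (28.0-fold). Cidea was 10.6-fold higher, with 14 UMIs. Plin2, the perilipin of most other cells, and the seipin gene Bscl2 were nearer to the other nuclei, at 1.67-fold and 1.73-fold.

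Among genes of lipolysis, 7 of 11 were at least 2-fold higher. Mgll, which cleaves monoglyceride in the last step, was 17.7-fold higher, and Pnpla2 (ATGL), which cleaves triglyceride in the first step, 2.48-fold higher with its coactivator Abhd5 at 4.32-fold. Pde3b, which breaks down cyclic AMP under insulin, was 4.66-fold higher, and the antilipolytic receptors Adora1 (10 UMIs) and Ptger3 were 12.0-fold and 4.84-fold higher. The glycerol channel Aqp7 was at 1.43-fold.

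Of the genes of fatty acid uptake and activation, 8 of 9 were at least 2-fold higher. Lpl, which releases fatty acids from circulating lipoproteins, was 32.8-fold higher, the fatty acid carrier Cd36 17.7-fold, Cav1 of the caveolae 10.8-fold and Acsl1 10.0-fold. Acsl5, an acyl-CoA synthetase that the epithelium also expresses, was at 0.884-fold. In triglyceride synthesis 6 of 8 genes were at least 2-fold higher, with Gpd1 at 4.83-fold, Lpin1 at 3.76-fold, Dgat2 at 2.97-fold and Gpam at 2.81-fold. Dgat1, the acyltransferase of fat absorption, was at 201 CPM in both.

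De novo lipogenesis, the making of fatty acids from sugar, had 1 of 9 measured genes at least 2-fold higher. That gene, Thrsp, a lipogenic regulator, was at 59.7 CPM against 0.220 CPM (271-fold). Of the 7 genes with at least 100 UMIs, which leave out Thrsp, 0 were at least 2-fold higher, beside 19.6% of all genes with at least 100 UMIs. Fasn was at 1.65-fold, Acaca at 1.67-fold and Acly at 1.33-fold, and Scd had 0 UMIs. For insulin signalling and glucose uptake 6 of 10 were at least 2-fold higher. Trarg1, a partner of the glucose transporter GLUT4, was 79.5-fold higher and Irs1 16.3-fold, while Slc2a4, which encodes GLUT4 itself, had 3 UMIs.

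Secreted proteins included 9 of 11 genes at least 2-fold higher. Lep (leptin) was 52.3-fold higher on 11 UMIs, Rbp4 44.7-fold, Rarres2 (chemerin) 6.60-fold, Angptl4 5.61-fold and Agt 4.05-fold. Itln1, a lectin of goblet and Paneth cells in rodents, was at 36.2 CPM against 579 CPM. Among receptors and other mature genes 8 of 10 were at least 2-fold higher, including Aoc3 at 19.5-fold, Acvr1c at 9.05-fold and the growth hormone receptor Ghr at 4.91-fold. Of the transcription factors 7 of 12 were at least 2-fold higher, led by Pparg at 18.1-fold, Ebf2 at 12.1-fold and Ebf1 at 11.6-fold, with Cebpa at 2.37-fold and Cebpb at 1.17-fold.

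The thermogenic list of brown and beige fat had 2 of 10 genes at least 2-fold higher, on few UMIs, namely Dio2 with 3 and Prdm16 with 15. Of its 5 genes with at least 100 UMIs 1 was higher, near the 19.6% of all such genes. Ucp1, Elovl3, Cox8b and Zic1 had 0 UMIs in 552374, which for each gene allows up to 5.43 CPM by counting error. Of preadipocyte and progenitor genes 5 of 10 were at least 2-fold higher, led by Col15a1 at 11.5-fold, while Pdgfra was at 30.1, 0 and 43.2 CPM in CON 1, 2 and 3 and 354 CPM in SAP 3. Dlk1, the classical preadipocyte gene, had 0 UMIs. Of fasting and glucocorticoid genes 4 of 10 and of inflammatory genes 1 of 16 were at least 2-fold higher, the latter being Il6r at 2.99-fold. Among genes with at least 100 UMIs these counts were 5 of 9 for preadipocyte, 4 of 10 for fasting and 1 of 15 for inflammatory genes, beside the same 19.6%. Il6, Hp and Tlr4 had 0 UMIs.

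**Figure D4:**
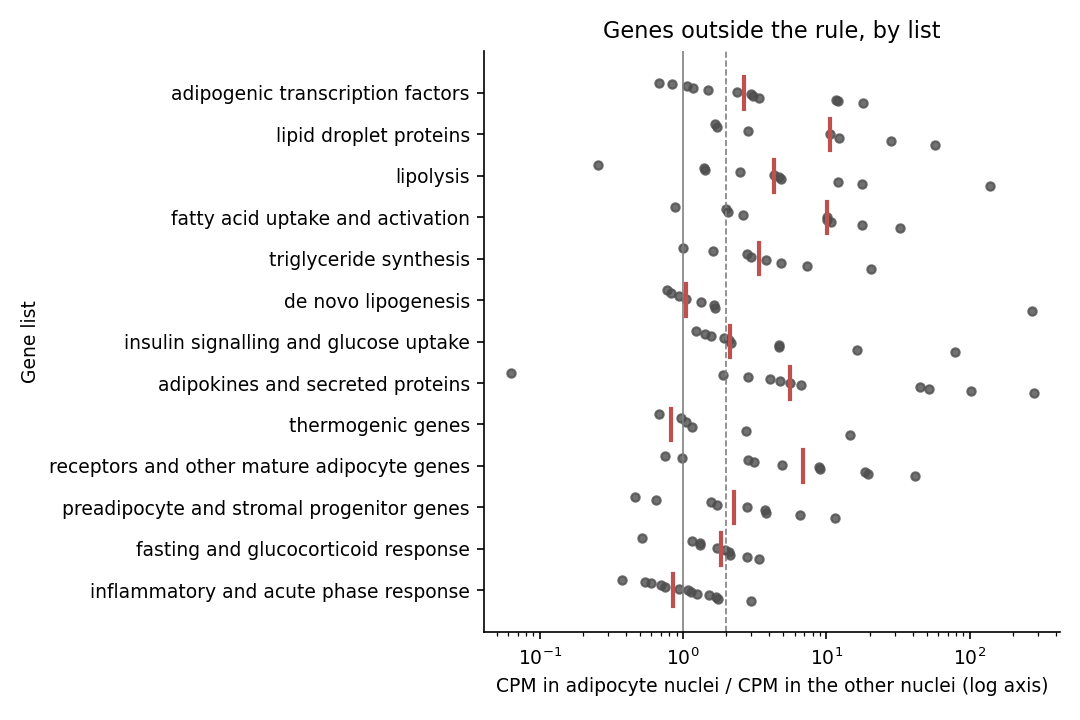
Ratio of CPM in adipocyte nuclei to CPM in the other nuclei (x axis, log axis) for genes outside the rule in 13 lists (y axis), with 1 point per gene and the list's median as a red line. The 10 genes with 0 UMIs in adipocyte nuclei cannot be drawn, lines mark ratios of 1 and 2, and fatty acid uptake lies mostly to the right of 2 while inflammatory genes lie around 1.

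Levels varied among nuclei and libraries. In CON 1 a single nucleus held 194 of 433 UMIs of Fabp4 and 5 nuclei held 78.3%, and for Cfd 5 nuclei held 70.8% in CON 1 and 88.5% in CON 3. For Plin1 the 5 highest nuclei held 32.9% in CON 1, 68.4% in CON 2, 47.9% in CON 3 and 61.9% in SAP 3. Over the 4 libraries with at least 10 adipocyte nuclei, Plin1 ran from 414 to 1051 CPM and Retn from 60.4 to 461 CPM. Kcnip1, a potassium channel interacting protein, ran from 80.3 CPM in CON 1 to 1531 CPM in SAP 3.

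**Figure D5:**
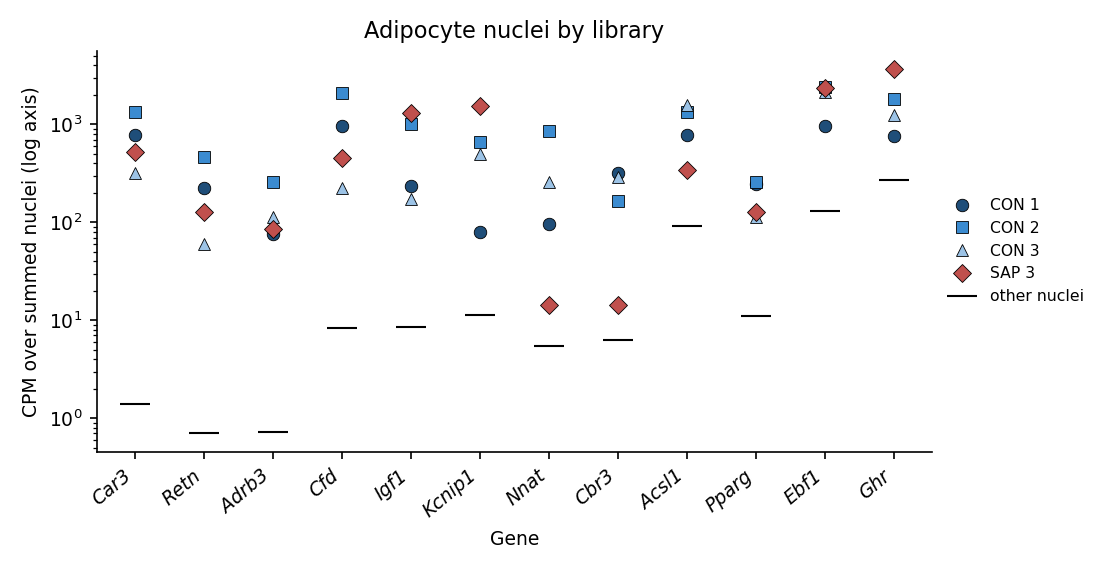
Levels of 12 genes (x axis) in the adipocyte nuclei of CON 1, 2 and 3 and SAP 3 (y axis, CPM over summed nuclei, log axis), with the level in all other nuclei as a bar. SAP 3 lies within the CON range for Car3 and Pparg and at 14.2 CPM, below all CON libraries, for Nnat and Cbr3.

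The nuclei that SAP libraries contributed differed. The only adipocyte nucleus of SAP 2 held 13017 UMIs, with 1 UMI of Plin1, 1 of Cidec and 3 of Lipe, none of Adipoq, Fabp4, Car3, Cfd or Retn, and UMIs of all 5 epithelial markers. The 17 nuclei of SAP 3 together held UMIs of all 5 rule genes, at 496 CPM for Fabp4 and 596 CPM for Plin1. A comparison of SAP with CON within the class therefore rests on 3 CON libraries, 1 SAP library with 17 nuclei and 1 SAP nucleus.

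In that comparison no gene was called. Of 2234 genes tested on UMIs summed per library (edgeR), 0 (0%) had an adjusted p under 0.05 with a log2 fold change of at least 0.5 in either direction, and the smallest adjusted p was 0.622. At an unadjusted p under 0.05 there were 152 genes, 68 higher and 84 lower in SAP. DESeq2 also called 0, with 199 genes at an unadjusted p under 0.05. With the replicate number as a block, which left 2 pairs (SAP 2 with its single nucleus) and 3787 genes after filtering, edgeR gave 3 calls, with Nnat and C6h14orf180 lower and Cyp4b1 higher in SAP. The median log2 fold change over the tested genes was −0.04.

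Genes with the smallest p-values are given by value. Cbr3, a carbonyl reductase, was at 355, 162 and 317 normalised CPM in CON 1, 2 and 3 and at 0 and 15.0 in SAP 2 and 3 (log2 fold change −4.47 ± 0.91 SE, edgeR adjusted p = 0.622). C6h14orf180 was at 152, 360 and 289 normalised CPM in CON and 0 in both SAP libraries. Slc4a4, a bicarbonate cotransporter, was at 884, 828 and 671 normalised CPM in CON and 250 and 240 in SAP. These genes, with Plch2 and Uaca, were picked for their small p-values, and the 0 UMIs in SAP 2 come from a single nucleus, so the gap between the groups is not read as a result. Cbr3 was called lower in SAP with no filter on low counts (edgeR, adjusted p = 0.0182) and with at least 2 markers (edgeR, adjusted p = 0.00598). With nuclei of another class left out, SAP was SAP 3 alone. There the log2 fold change was −7.31 for Cbr3 and −6.85 for C6h14orf180. No filter on low counts, at least 2 markers and the replicate block also called C6h14orf180 lower in SAP (edgeR, adjusted p from 0.00789 to 0.0469).

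On the other side, Slc10a2, the bile acid transporter of the ileal enterocyte, was at 62.8, 18.0 and 28.0 normalised CPM in CON and 188 and 299 in SAP (log2 fold change 2.57 ± 0.69 SE, edgeR adjusted p = 0.622). Clec2h, Clec2e, Sema4b and Slc25a20 had log2 fold changes from 1.75 to 3.10. Of the 5 epithelial markers 3 had a positive and 2 a negative log2 fold change, with a median of 0.17, from −0.17 for Epcam to 1.42 for Cdh17, and 2 of them (Cdh17 and Vil1) had an unadjusted p under 0.05. Summed, the 5 markers were at 2172, 2156 and 2331 CPM in the adipocyte nuclei of CON 1, 2 and 3 and at 5070 and 2694 CPM in SAP 2 and 3, above CON in both. The macrophage marker C1qa was at 588, 108 and 233 normalised CPM in CON and 0 and 15.0 in SAP, and the smooth muscle marker Myh11 at 207, 54.0 and 214 in CON and 0 in both SAP libraries. C1qa and Myh11 also had an unadjusted p under 0.05. None of these markers was called here, C1qa was called with no filter on low counts (edgeR, adjusted p = 0.00827), and their part in the result was not tested.

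Among adipocyte and other listed genes outside the rule, 40 were tested between SAP and CON, 20 with a positive and 20 with a negative log2 fold change and a median of −0.01, and 0 were called. At an unadjusted p under 0.05 were Acsl1, at −2.32 ± 0.67 SE (edgeR adjusted p = 0.622), and Acvr1c, at −2.00 ± 0.75 SE (edgeR adjusted p = 0.637). Acsl1 was called lower in SAP with no filter on low counts (edgeR, adjusted p = 0.0136). Acsl1 had been at 777, 1345 and 1580 CPM in CON 1, 2 and 3 and at 340 CPM in SAP 3. Ghr was at 760, 1806 and 1235 CPM in CON and 3687 CPM in SAP 3, at 0.80 ± 0.86 SE (edgeR adjusted p = 0.928). Of the 16 inflammatory genes 4 could be tested, 3 with a positive and 1 with a negative log2 fold change and a median of 0.38, with Stat3 at 0.66 ± 0.43 SE (edgeR adjusted p = 0.843).

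When only libraries with at least 10 adipocyte nuclei were kept, SAP was SAP 3 alone, assumed to vary like the CON libraries. Of 4162 genes 3 (0.0721%) were called in edgeR, all higher in SAP 3. Cyp4b1, a cytochrome P450 of fatty acids, was at 10.0, 0 and 0 CPM in CON and 553 CPM in SAP 3 (39 UMIs). Spon1, a matrix protein, was at 16.7, 36.9 and 34.5 CPM in CON and 567 CPM in SAP 3. The ubiquitin gene Ubb was at 127, 147 and 121 CPM in CON and 780 CPM in SAP 3. The fibroblast markers summed to 271, 240 and 190 CPM in the adipocyte nuclei of CON 1, 2 and 3 and to 709 CPM in SAP 3, with Dcn as their most abundant gene and none of the 5 at 0 over the class. The endothelial markers, led by Pecam1, summed to 335, 203 and 225 CPM in CON and 723 CPM in SAP 3. The part of these markers in the 3 calls was not tested.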

How the data were processed

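The authors deposited UMI counts per gene and barcode for 6 libraries, made with dnbc4tools and not normalised; the submitters' notes name the build mRatBN7.2 and Seurat 4.3.0. The study's quality limits were applied (UMIs from 1200, genes from 500, mitochondrial UMIs no more than 5%), and they kept more nuclei than the study's text states. The members, gene lists and marker classes were chosen with earlier results of these data known. Adipocyte nuclei were compared as UMI sums per library with edgeR 4.0.16 (quasi-likelihood, TMM, filterByExpr; SE from the log2 fold change and its F statistic), with DESeq2 1.42.0 as an alternative, and shares with limma 3.58.1 on logit shares (offset 0.5); p-values were adjusted by Benjamini-Hochberg over all genes or 12 classes (6 for shares of stromal nuclei). Scripts were tested on simulated data. Named genes were the rule genes, list genes with at least 20 UMIs (others are named with their UMIs or as low values), the 25 leading genes and 5 per direction by smallest p. Genes named from the fit with at least 10 nuclei per library or with the block were chosen after their calls were seen.

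Doublets were not removed, because Scrublet's automatic threshold marked 0.0220% of nuclei; removing the top 5% was an alternative. Of the barcode names, which are bead indices, 5398 occur in more than 1 library. Libraries of the same replicate number had correlations of 0.570, 0.200 and 0.543 over all nuclei, across 19431 genes. Levels had been centred within each group, which forces some correlations between the groups to be negative. The labels state no pairing, and the block rests on these same data. Results with the block are therefore a description and no support for a difference. Pairs of different numbers ran from −0.623 to 0.176, the highest being CON 2 with SAP 1, close to the 0.200 of CON 2 with SAP 2.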

Additional observations from a re-analysis of the deposited data

How the results depend on the processing

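The share of adipocyte nuclei was lower in SAP in all alternatives except that with at least 2 rule genes, where SAP was 0.623 percentage points higher. Of the other alternatives, 12 took the share of all nuclei that the alternative kept and ran from −0.410 to −0.0709 percentage points (limma, adjusted p from 0.0263 to 0.690), and the groups overlapped in 4 of them. The difference crossed the threshold with the replicate block (−0.256 points, adjusted p = 0.0263) and against stromal nuclei (−8.64 points, adjusted p = 0.0259 over 6 classes). Leaving out 1 library gave −0.325 to −0.195 points (adjusted p from 0.0249, without SAP 3, to 0.674). The count of genes changed between SAP and CON was 0 with DESeq2, library totals, at most 1% mitochondrial UMIs and the top 5% by Scrublet left out. It was 11 with no filter on low counts, 3 with the replicate block and 3 with at least 2 markers. With at least 10 nuclei per library, at least 4 markers or nuclei of another class left out, SAP was SAP 3 alone. Calls of those fits set 1 rat against CON. Among alternatives chosen after seeing the data, the count was 0 with nuclei of another class besides epithelium left out. With at least 2 of Plin1, Adipoq and Fabp4, or with nuclei over 10000 UMIs left out, SAP was again SAP 3 alone. Leaving out 1 CON library gave 0 each time, and without SAP 2 or SAP 3 a single SAP library was left. Of the 16 genes called under any alternative 9 were called under a single alternative, and Cyp4b1 under 6, with the fit without SAP 2 counted together with that of at least 10 nuclei per library, which is the same. For Cyp4b1 these were no filter on low counts and the replicate block, and otherwise fits with SAP 3 as the only SAP library. The count of 58 adipocyte genes at least 2-fold higher became 36 with at least 2 markers and was 56 to 58 without 1 library. It was 64 with at least 4 markers and 62 with nuclei of another class left out. Among alternatives chosen after seeing the data, it was 60 with at least 2 of Plin1, Adipoq and Fabp4. It was 66 with nuclei of another class besides epithelium left out and 68 with nuclei over 10000 UMIs left out. The causes were not tested. The 5 libraries compared held 1 to 42 adipocyte nuclei and 13017 to 298768 UMIs of them, which limits the precision for low genes.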
